A study of Rattus norvegicus with 6 samples.

Results

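The circulating microRNAs (miRNAs) miR-1224, miR-188 and miR-494 (rno-miR-1224, rno-miR-188 and rno-miR-494 on the array) were followed through every array of a rat plasma study of thioacetamide, a compound that injures the liver once hepatocytes have oxidised it. They are 3 of the 677 rat miRNAs on the array and own 6 of its 1644 probes, which makes 60 spots per array. They were taken by name from the array's own gene column. They were chosen by measured values: miR-1224 was among the brightest miRNAs of both groups and miR-188 tended to rise although it is no marker of liver. Brightness also depends on the probe and is no measure of abundance between miRNAs. The difference between the treatment groups is therefore described for these miRNAs and not tested.

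RNA was extracted from equal volumes of plasma from 6 male Wistar rats, labelled with 1 dye and hybridised to 6 arrays of 1 slide, 1 array per animal. The 3 control animals received saline by intraperitoneal injection. The other 3 received 100 mg/kg thioacetamide in saline by the same route. Every animal was killed 24 h after the dose, and the labels give no age. Vehicle animals weighed 393 to 426 g at the start and gained 3 to 4 g, whereas thioacetamide animals weighed 413 to 428 g and lost 18 to 20 g. Plasma holds no cells of its own, so more RNA released per cell and more cells releasing it cannot be told apart. The number of arrays, 3 per group, limits the precision of each value.

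A miRNA is cut from a hairpin precursor, loaded into an Argonaute protein and guided to messenger RNAs mainly through its seed, bases 2 to 8 of the mature strand. Plasma carries miRNAs in vesicles and bound to proteins, released by blood cells, vessel walls and injured tissue, and liver injury is known to release the hepatocyte miRNA miR-122. miR-1224 is a mirtron, a short spliced intron that folds into a precursor without cleavage by Drosha, and lies within Vwa5b2. miR-188 comes from an intron cluster of Clcn5, a chloride transporter gene. miR-494 belongs to the imprinted Dlk1-Dio3 region, one of the largest miRNA clusters of placental mammals.

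The mature sequences are shown because neither the seeds nor the bodies place the 3 in a family. All 3 matched RefSeq's rat miRNAs (GRCr8) through the complement of their probes, as miR-1224, miR-188-5p and miR-494-3p, and capitals mark the seed.
miR-1224: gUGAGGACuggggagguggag
miR-188-5p: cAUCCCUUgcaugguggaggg
miR-494-3p: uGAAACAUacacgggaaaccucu
The 3 seeds differ from one another, and 0 other miRNAs among the 724 mature rat sequences of that table carry any of them. miR-1224 was 61.9% G, rank 3 of those 724 sequences. miR-188-5p was 38.1% G and miR-494-3p 17.4%.

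The array probes are shown because they measure only the tail of each miRNA, and there miR-1224 and miR-188 look alike. Capitals mark the longest run that the probes of miR-1224 and miR-188 share.
miR-1224 shorter probe: CTCCACCtcc
miR-1224 longer probe: CTCCACCtccc
miR-188 shorter probe: ccCTCCACCa
miR-188 longer probe: ccCTCCACCat
miR-494 shorter probe: agaggtttcccgtg
miR-494 longer probe: agaggtttcccgtgt
The probes of miR-1224 and miR-188 were 10 and 11 bases long and paired with bases 12 to 21 or 11 to 21 of the miRNA, so none touched a seed. Those of miR-494 were 14 and 15 bases long and paired with bases 10 to 23 or 9 to 23. The run CTCCACC, 7 bases long, was found in 4 of the 1644 probes (0.243%), which are the 4 shown. Its complement GGTGGAG, as DNA letters, stood in 4 of the 724 mature sequences (0.552%), the others being miR-296-3p and miR-667-5p. The miR-494 probes shared at most 4 bases in a row with those of miR-1224 and 3 with those of miR-188.

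On the rat build rn4 the array file placed the longer probes at chr11:82536274-82536283 for miR-1224, chrX:27323568-27323577 for miR-188 and chr6:134394925-134394938 for miR-494. Each listed span is 1 base shorter than its probe. In RefSeq's gene table (GRCr8), Mir1224 overlapped Vwa5b2, with 0 other miRNA genes within 50 kb. Mir188 overlapped Clcn5 and had 5 miRNA genes within 50 kb, among them Mir532, Mir362, Mir501 and Mir500. Mir494 overlapped the uncharacterised LOC102555254 and had 41 miRNA genes within 50 kb.

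Array quality bears on all 3 miRNAs, because the signal at which a spot was marked well above background differed between arrays. The lowest such signal was 18.7 on the array of vehicle animal 1, 41.2 on that of thioacetamide animal 2 and 47.0 on that of thioacetamide animal 3, the 3 arrays in slide columns 3 and 4. It was 138 for vehicle animal 2, 155.1 for vehicle animal 3 and 437 for thioacetamide animal 1, the 3 arrays in slide columns 1 and 2. On each array it lay close to 5.00 times the additive error stored for that array, which ran from 3.74 to 87.3. Both pairs of columns hold both groups, but unequally. Detected miRNAs numbered 62, 69 and 83 per array in columns 3 and 4, against 27, 16 and 22 in columns 1 and 2. Over the study 578 of the 677 miRNAs were detected on no array and 59 on at least 3, and these 59 were tested. A miRNA counted as detected on an array when over 50% of the spots of at least 1 of its probes were well above background. Liver-listed miRNAs summed to a scaled signal of 412.1 to 559 on the vehicle arrays and 13244 to 42141 on the thioacetamide arrays, with 4 of 5 tested members higher, 0 lower and a median difference of 4.23 on the log2 scale. Over all 59 tested, 9 were higher (15.3%), 1 was lower and the median was 0.45. Red-cell-listed miRNAs summed to 10755 to 13736 and 6358 to 6596, with 0 of 7 higher, 1 lower and a median of -0.81. The scaling rested on probes detected on all 6 arrays. Of this list, miR-16, miR-25, miR-92a and miR-451 are among the 8 miRNAs so detected. These scaled sums are therefore not independent of the scaling. Before scaling, miR-92a was 364 to 620 in vehicle and 1168 to 1716 in thioacetamide animals. In the same order miR-451 was 4257 to 8265 and 2317 to 8665. miR-16 was 1454 to 2892 and 945 to 2865, and miR-25 was 241 to 401 and 285 to 634. Without scaling, all 22 miRNAs called between treatments were higher. All 5 neuron-listed miRNAs were undetected on every array.

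miR-1224 was bright in every animal and brighter in each thioacetamide animal than in any vehicle animal. Its signal, summed over its probes and before scaling, was 574, 519 and 505 in vehicle animals 1, 2 and 3. It was 2618, 5352 and 8279 in thioacetamide animals 1, 2 and 3. The vehicle animals lay within a narrow band and the groups did not overlap, with thioacetamide animal 1 the lowest of its group. The means were 533 ± 36.4 (SD, n = 3) and 5416 ± 2831 (SD, n = 3), a ratio of 10.2 before scaling.

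Scaling divided each array by a factor of 0.626 to 2.27, so levels are also given as log2 of the scaled signal. Scaled miR-1224 levels were 9.26, 9.39 and 9.66 in the vehicle animals and 10.17, 12.75 and 12.70 in the thioacetamide animals. The gap between the groups narrowed most at thioacetamide animal 1, the array with the largest scale factor. The difference was 2.44 ± 0.75 (SE), or 5.42-fold, against a median difference of 0.45 over the 59 tested miRNAs. miR-1224 was detected on 3 of 3 arrays in each group, and is 1 of 8 miRNAs detected on all 6. The scaling itself rested on 12 probes, of which 1 was the longer miR-1224 probe. With the percentile taken without the probes of the 3 miRNAs, the miR-1224 difference was 3.1.

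miR-188, a miRNA reported in synapses and in bone marrow stroma, was dim in vehicle plasma. Its summed signal before scaling was 44.2, 146 and -31.4 in vehicle animals 1, 2 and 3. A negative value means spots dimmer than the background subtracted from them. In thioacetamide animals 1, 2 and 3 it was 503, 1043 and 1546. All 3 thioacetamide arrays lay above all 3 vehicle arrays, and the thioacetamide animals stood in the same order as for miR-1224.

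On the scaled log2 scale miR-188 stood at 5.56, 7.56 and 5.53 in the vehicle animals, the last value being the floor of 46.1 scaled units. The thioacetamide animals stood at 7.79, 10.39 and 10.27. The highest vehicle array and the lowest thioacetamide array, both in slide columns 1 and 2, were only slightly apart. The difference was 3.27 ± 0.91 (SE). No exact fold is given, since 3 of the 6 arrays lay below their limit. With the floor 4 times as high it was 1.95, and with the floor 0.25 times as high 3.94. miR-188 was detected in 1 of 3 vehicle animals and 2 of 3 thioacetamide animals, and each of those arrays lay in columns 3 and 4.

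miR-494 did not follow the other two. Its summed signal before scaling was 128, 531 and 47.3 in vehicle animals 1, 2 and 3. It was 131, 70.2 and 92.4 in thioacetamide animals 1, 2 and 3. Vehicle animal 2 was the highest of all 6, and the groups overlapped.

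Scaled log2 levels of miR-494 were 7.10, 9.42 and 6.24 in the vehicle animals and 5.85, 6.50 and 6.21 in the thioacetamide animals. The difference was -1.40 ± 0.82 (SE). It was -0.48 without vehicle animal 2 and -2.84 without vehicle animal 3, so the size rests on single arrays. miR-494 was detected in 2 animals of each group, and vehicle animal 2 held the only such array in columns 1 and 2.

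**Figure D1:**
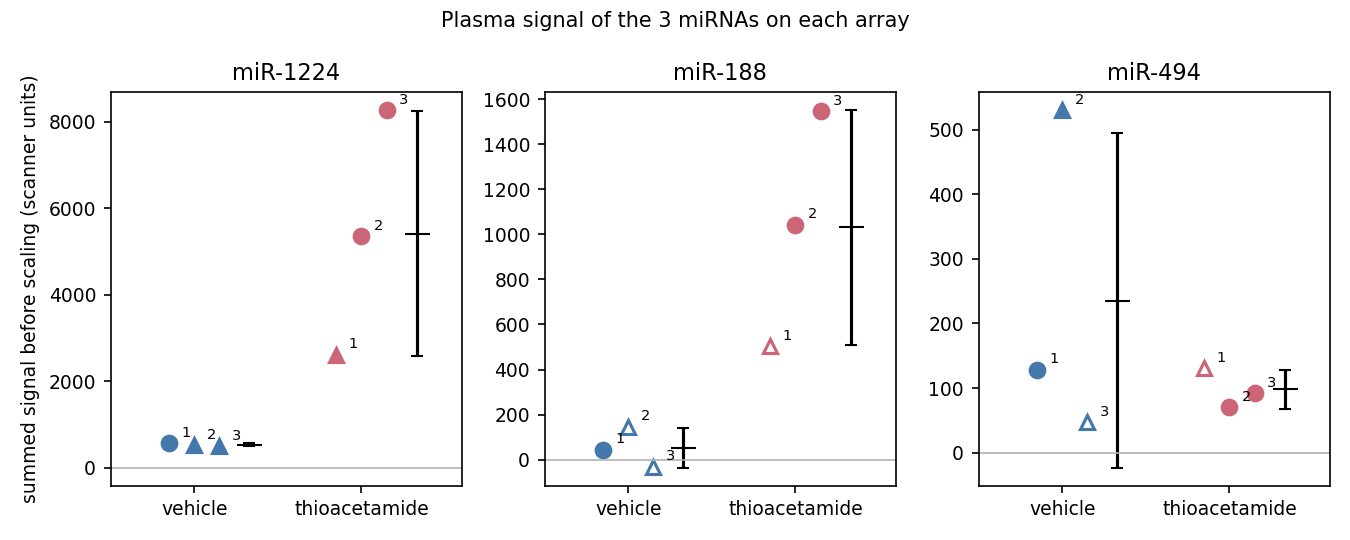
Summed signal before scaling (scanner units) of miR-1224, miR-188 and miR-494 on each array, with vehicle in blue and thioacetamide in red and the animal number beside each point. Triangles are arrays in slide columns 1 and 2, circles those in columns 3 and 4, open points were not detected, and bars are the mean ± SD of 3 animals. The miR-1224 and miR-188 groups do not overlap, while miR-494 has its highest value, 531, in vehicle animal 2.

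Among the 59 tested miRNAs, 10 (16.9%) differed between treatments in limma's moderated test at an adjusted p under 0.05, 9 of them higher after thioacetamide (15.3%), and 0 of the 3 miRNAs was among them. That count was 25 without thioacetamide animal 1 and 6 without thioacetamide animal 3. In 16 of the 59 (27.1%) all 3 thioacetamide arrays lay above all 3 vehicle arrays, and 2 of the 3 miRNAs were of that kind. Groups did not overlap in either direction in 22 of the 59 (37.3%). Under other settings the call changed: miR-1224 was called in 6 of 28 settings, miR-188 in 10 of 24 and miR-494 in 1 of 27. Since the choice of the 3 used this contrast, nothing is read from these counts.

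Shares of each array's signal do not depend on the scale factor. miR-1224 held 3.11%, 2.46% and 3.59% of the summed signal of the 59 tested miRNAs in the vehicle animals and 3.73%, 10.3% and 9.23% in the thioacetamide animals. The means were 3.05% ± 0.568 and 7.75% ± 3.52 (SD, n = 3 each). Only thioacetamide animals 2 and 3 stood far from the vehicle range.

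The miR-188 share was 0.239%, 0.690% and 0% in the vehicle animals, against 0.716%, 2.01% and 1.72% after thioacetamide. For miR-494 it was 0.695%, 2.51% and 0.336%, against 0.187%, 0.135% and 0.103%. Negative signals counted as 0, as for miR-188 in vehicle animal 3. Neither miRNA was detected in vehicle animal 3 or thioacetamide animal 1, nor was miR-188 in vehicle animal 2. The summed signal that forms the denominator was 14089 to 21148 in vehicle animals and 52019 to 89697 in thioacetamide animals. A miRNA whose signal did not rise therefore has a lower share after thioacetamide. The scaled levels of miR-494 overlapped between groups, and no separation is read from its shares. Taken over all 677 miRNAs, the mean shares in vehicle and thioacetamide animals were 1.77% and 6.44% for miR-1224. They were 0.182% and 1.23% for miR-188, and 0.658% and 0.105% for miR-494.

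Both probes of a miRNA can be set against each other, which the choice of the 3 did not use. For miR-188 the probes read alike: 21.8 ± 2.99 and 22.4 ± 3.82 (SD over 10 spots each) in vehicle animal 1. In thioacetamide animal 2 they read 506 ± 25.5 and 538 ± 23.3. The longer probe was 1.03, 1.06 and 1.06 times the shorter in vehicle animal 1 and thioacetamide animals 2 and 3, the 3 arrays on which both were well above background.

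The miR-1224 probes, which differ by 1 base, read unlike each other. The longer one gave 519, 448 and 483 in the vehicle animals and 2411, 4564 and 7051 in the thioacetamide animals. The shorter one gave 54.9, 71.0 and 22.1, and then 207, 789 and 1228. The longer probe was 9.45, 5.79 and 5.74 times as bright in vehicle animal 1 and thioacetamide animals 2 and 3, where both were well above background. All spots of the longer probe were well above background on every array, whereas the shorter had 0 such spots in vehicle animals 2 and 3 and thioacetamide animal 1. Against the limit of those arrays the longer probe was at least 3.25, 3.12 and 5.52 times as bright. The treatment difference on the longer probe alone was 2.38.

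For miR-494 the longer probe was the only one detected. It read 114, 448 and 41.0 in the vehicle animals and 122, 62.5 and 80.0 in the thioacetamide animals. The shorter probe had 0 spots well above background on any of the 6 arrays. Against the array limit the longer was at least 6.11 and 3.25 times as bright in vehicle animals 1 and 2, and at least 1.52 and 1.70 times in thioacetamide animals 2 and 3. In vehicle animal 2 the 10 spots of the longer probe spread from 310 to 589 with an SD of 96.8, wider than the SD of 6.20 in vehicle animal 1.

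Detection of miR-188 and miR-494 followed the array's own limit and not their signal alone. miR-188 was called in vehicle animal 1 at probe means of 21.8 and 22.4, which were 1.16 and 1.20 times that array's limit. It was not well above background in thioacetamide animal 1 at 253 and 250, which were 0.580 and 0.572 times the limit there. The undetected array was thus the brighter of the pair. The longer miR-494 probe showed the same, being called at 62.5 in thioacetamide animal 2 and not at 122 in thioacetamide animal 1.

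**Figure D2:**
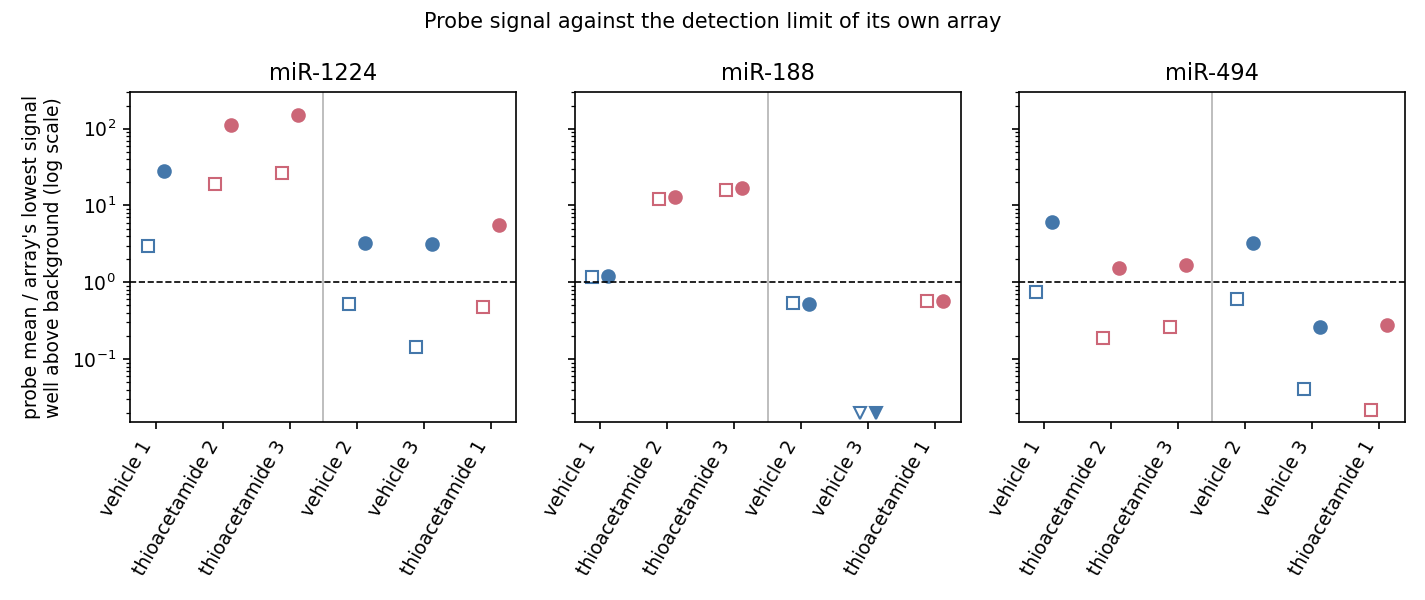
Mean signal of each probe divided by the lowest signal marked well above background on its array (log axis), for the 6 arrays. Filled circles are the longer and open squares the shorter probe, blue is vehicle and red thioacetamide, triangles at the bottom are values at or below 0.02, and the grey line parts slide columns 3 and 4 (left) from columns 1 and 2 (right). The miR-188 probes lie above the dashed line at 1 on the 3 left arrays and below it on the 3 right ones.

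Slide position was another grouping that the choice of the 3 did not use, and it could be tested where both sides held detected arrays. Columns 1 and 2 minus columns 3 and 4, with treatment in the limma model, gave -1.15 ± 0.64 (SE) for miR-1224, adjusted p = 0.287. It gave 0.11 ± 0.87 for miR-494, adjusted p = 0.917. Neither passed, against 9 of the 59 tested (15.3%). Most of those 9 were detected on 1 side only and so entered the tested set through that side. Their share thus sets no standard for miR-1224 or miR-494. With the percentile over all probes the miR-1224 value passed in limma (-3.36, adjusted p = 0.00186). Under that setting 44 of the 59 tested passed, 4 of them higher in columns 1 and 2, so the call is not particular to miR-1224. Without vehicle animal 1 the miR-1224 value was -2.56, which only sets thioacetamide animal 1 against thioacetamide animals 2 and 3. Without thioacetamide animal 1 it was 0.040, which only sets vehicle animal 1 against vehicle animals 2 and 3. For miR-494 the sign turned without vehicle animal 1 (-0.16) and without vehicle animal 2 (-0.66).

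miR-188 was not well above background on any array of columns 1 and 2, and entered the tested set only through columns 3 and 4, so no test between the sides is given for it. Set against the limits of the arrays in columns 1 and 2, its mean in columns 3 and 4 was at least 1.03-fold higher on the shorter and 1.08-fold on the longer probe. These bounds are not adjusted for the unequal split of the groups.

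Within each pair of columns the treatment difference kept its sign for all 3 miRNAs but not its size. For miR-1224 it was 0.65 in columns 1 and 2, where 2 vehicle animals meet 1 thioacetamide animal, and 3.46 in columns 3 and 4, where 1 vehicle animal meets 2. The miR-188 difference was 1.25 and 4.77, and that of miR-494 was -1.98 and -0.75. With slide side as a block the differences were 2.06 ± 0.64, 3.01 ± 0.91 and -1.36 ± 0.87 (SE). Of the 59 tested, 14 (23.7%) were called with that block and 0 of the 3 was among them, from which nothing is read since the choice used this contrast. Each side then compares 3 animals, so slide position and the single animals cannot be told apart.

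Across processing settings the miR-1224 difference ran from 0.45 with quantile normalization to 3.46 within columns 3 and 4. The miR-188 difference ran from 1.25 to 4.77, and that of miR-494 from -2.84 to -0.48. No setting turned the sign of any of the 3 among the 28, 24 and 27 values obtained. Quantile normalization forces the arrays to 1 distribution and lowered the median of all tested miRNAs by 0.43.

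**Figure D3:**
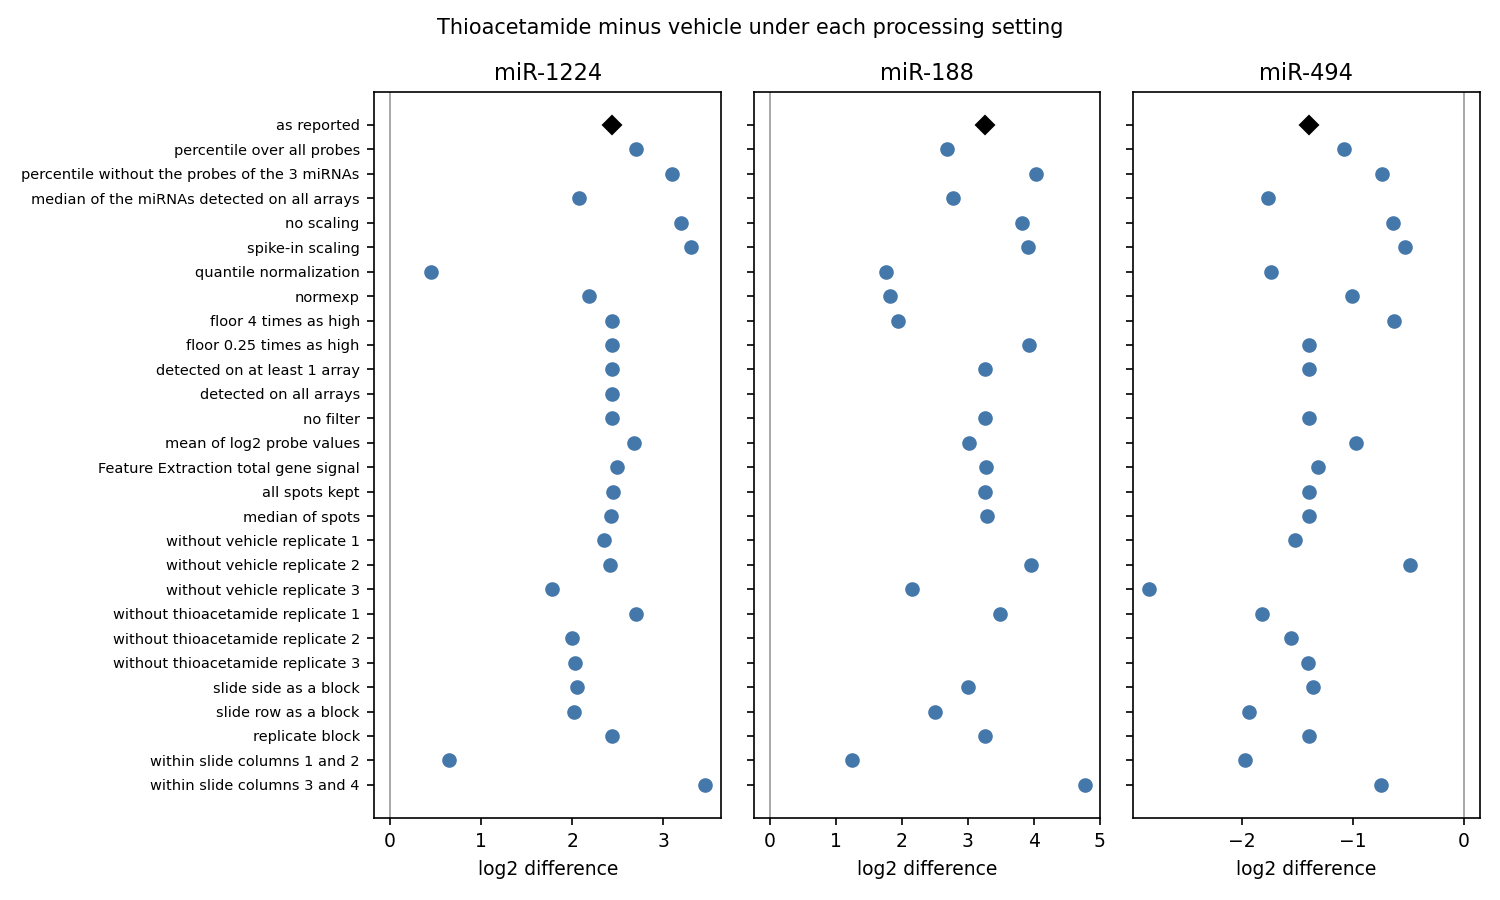
Thioacetamide minus vehicle difference in log2 signal for each miRNA under each processing setting, with the reported value as a black diamond and the alternatives in blue. The miR-1224 and miR-188 points all lie right of 0 and the miR-494 points left of it, with miR-1224 lowest, at 0.45, under quantile normalization.

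The miRNAs whose scaled log2 pattern over the 6 arrays was most like that of miR-1224 were miR-26a (Pearson r = 0.990), miR-26b (r = 0.984) and miR-320 (r = 0.970). miR-26a and miR-26b share a seed, and miR-320 matures without Drosha. For miR-188 they were miR-3584-5p (r = 0.983), miR-92a (r = 0.972), a member of the miR-17-92 cluster, and miR-30d (r = 0.954). For miR-494 they were let-7i (r = 0.840), miR-93 (r = 0.773) and miR-20a (r = 0.763). Between the 3 themselves r was 0.92 for miR-1224 and miR-188, -0.43 for miR-1224 and miR-494 and -0.16 for miR-188 and miR-494. All these values are descriptions over 6 arrays that share 1 slide, its scaling and its treatment groups. In vehicle animals miR-26a and miR-320 stood at the floor on all 3 arrays, and miR-26b close to it (5.54 ± 0.023, SD). None of these was detected in columns 1 and 2, so their r with miR-1224 rests largely on thioacetamide animals 2 and 3.

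Few miRNAs encoded beside miR-188 and miR-494 were detected, as was so for the array as a whole, where 99 of 677 miRNAs (14.6%) were detected on any array. Of 10 miRNAs listed for the Clcn5 intron cluster, 2 were detected on any array, miR-188 and miR-500. miR-500 reached detection on 1 array, with summed signals of 39.4, 40.4 and 5.21 in the vehicle and 31.6, 23.0 and 45.8 in the thioacetamide animals. The opposite arm, miR-188*, was detected on 0 arrays. Of the cluster only miR-188 was among the 59 tested, so the cluster has no median apart from it.

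Of 89 miRNAs listed for the Dlk1-Dio3 region, 5 were detected on any array and only miR-494 was tested. The others were miR-134 and miR-667 on 2 arrays each and miR-329 and miR-370 on 1 each. miR-134 gave 81.8 and 221 in thioacetamide animals 2 and 3 and at most 3.86 in the other 4 animals. miR-667 and miR-329 gave their highest signals, 713 and 655, in thioacetamide animal 1, the array with the highest additive error. These are sums over probes, whereas the limit there was 437 per spot, so they need not be detections. miR-370 gave 95.0 in thioacetamide animal 3 and 40.0 in thioacetamide animal 2. miR-494*, the other strand of the miR-494 hairpin, was detected on 0 arrays.

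The probes of miR-1224 and miR-188 also stood apart in base composition. They were 63.6% to 72.7% C, and held ranks 1, 2, 2 and 4 of 1644, whereas the miR-494 probes were 20.0% and 21.4% C. Of the 63 probes with at least 50% C, 25 (39.7%) were detected on some array, against 170 of all 1644 (10.3%). Without miR-1224 and miR-188 it was 21 of 59 (35.6%). The threshold of 50% was set after the sequences were seen, and probes of 1 miRNA share most of their sequence.

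The 8 brightest other C-rich probes after thioacetamide belonged to miR-3584-5p, miR-211*, miR-652*, miR-328a*, miR-327 and miR-483*. The miR-3584-5p probe had a mean of 143 in vehicle and 949 in thioacetamide animals before scaling. That of miR-211* went from 18.8 to 266, while that of miR-483*, detected on 4 arrays, was lower after thioacetamide, at 69.1 against 81.1. Over the 59 C-rich probes outside miR-1224 and miR-188 the median was -18.2 in vehicle and -13.8 in thioacetamide animals. In 39 of these 59, thioacetamide animals 2 and 3 both lay above vehicle animal 1, against 631 of all 1644 probes. That comparison covers only slide columns 3 and 4, with 1 vehicle animal. Only 21 of the 59 probes were detected on any array, so most of these orderings lie among undetected probes. The part of base composition in the signal of miR-1224 and miR-188 was not tested.

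**Figure D4:**
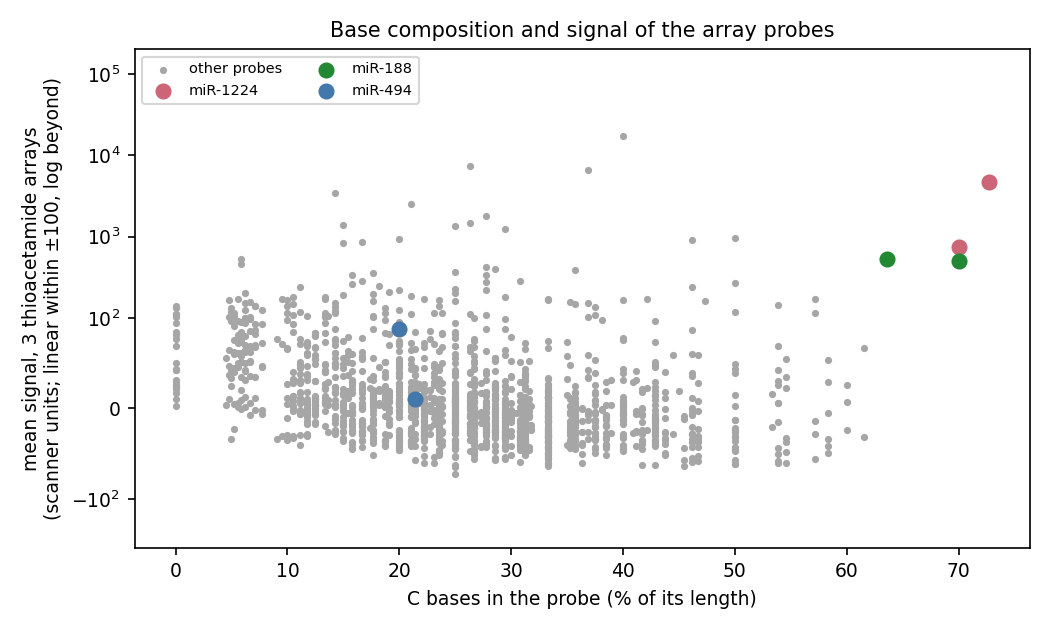
C bases as a percentage of probe length against the mean signal of the 3 thioacetamide arrays (linear within ±100, logarithmic beyond), for all 1644 probes. The miR-1224 (red) and miR-188 (green) probes lie at 63.6% to 72.7% C, right of all other probes (grey), and the miR-494 probes (blue) lie at 20.0% and 21.4%.

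Platelet- and endothelium-listed miRNAs summed to a scaled signal of 445 to 506 in vehicle and 518 to 1482 in thioacetamide animals, with 1 of 5 tested members higher, 0 lower and a median of 1.84. Leukocyte-listed miRNAs summed to 572 to 971 and 1134 to 1520, with 1 of 4 higher, 0 lower and a median of -0.23. Over all 59 tested, 15.3% were higher and the median was 0.45. The part of these sources, and of the liver and red cell lists, in the values of miR-1224, miR-188 and miR-494 was not tested.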

How the data were processed

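The deposited values are spot intensities of 1-colour Agilent rat miRNA arrays, already background-subtracted (processed signal), per the file headers. The submitters' processing notes name Agilent Feature Extraction, version 10.7.3.1, as the software. The series value table equals this intensity within 0.005. Positions are on rn4, per the file headers. Each file also holds flags deposited for spots well above background, saturated (0 spots) or outlying, and 2126 outlying spots were left out.

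Unmarked spots were averaged per probe, probes summed per miRNA, divided by a factor from the 75th percentile of the 12 probes detected on all arrays, floored at 46.1 (the 5th percentile of the scaled signals of detected miRNAs) and taken to log2. miRNAs detected on at least 3 of 6 arrays were fitted with limma 3.58.1 (R 4.3.3; eBayes; Benjamini-Hochberg adjustment), without a block or with slide side as a term. Total signal over the 59 tested miRNAs was 14089 to 89697 per array. Each array is 1 animal. Other scalings, background, floors, filters, blocks and left-out arrays were tried, and the code was tested on simulated data.

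Named beside the 3 are, for each, the 3 tested miRNAs with the highest Pearson r, and every detected miRNA of its genomic cluster. C-rich probes were named after their values were seen. The 3 miRNAs, the lists and the tests were chosen with earlier results of these data known.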

Additional observations from a re-analysis of the deposited data

Results flagged for a closer look

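The treatment difference of miR-1224 was 0.65 on the log2 scale in slide columns 1 and 2 and 3.46 in columns 3 and 4. A limma term for the difference between the sides, added after these values had been seen, was -2.82 ± 0.41 (SE) and passed the threshold, as did 15 of the 59 tested miRNAs (25.4%). The term restates those values and rests on the contrast that chose miR-1224. In columns 1 and 2 the only thioacetamide animal was animal 1, and in columns 3 and 4 the only vehicle animal was animal 1, so it is no independent evidence of a difference between the sides. Over 21 settings it ran from -3.06 to -1.18 and passed in 13. The 8 in which it did not were the percentile over all probes (-1.52), median scaling (-1.70), no scaling (-1.18), spike-in scaling (-1.68), quantile normalization (-1.80), and leaving out vehicle animal 3 (-2.34), thioacetamide animal 2 (-2.79) or thioacetamide animal 3 (-2.84).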

How the results depend on the processing

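The number of miRNAs that differed between treatments (10) was 3 with the percentile over all probes, 20 with it taken without the probes of the 3 miRNAs, 16 with median scaling, 22 without scaling, 21 with spike-in scaling, 6 with normexp, 19 among miRNAs detected on at least 1 array, 2 among those detected on all arrays, 2 without a filter, 0 within columns 1 and 2 (where 3 arrays were compared) and 37 within columns 3 and 4. Leaving out 1 animal gave 6 to 25. The share of higher calls, 9 of 10, was 20 of 20, 22 of 22 and 21 of 21 with the percentile without the 3, no scaling and spike-in scaling, 12 of 16 with median scaling, 8 of 13 with quantile normalization, 7 of 11 with a floor 4 times as high, 14 of 19 among miRNAs detected on at least 1 array, 0 of 2 among those detected on all arrays, 6 of 12 without vehicle animal 3 and 18 of 25 without thioacetamide animal 1. The miR-1224 difference was 0.45 with quantile normalization and 0.65 within columns 1 and 2, and 1.78 to 2.70 with 1 animal left out. The miR-188 difference was 1.77 with quantile normalization, 1.83 with normexp, 1.25 and 4.77 within the sides of the slide, and 2.16 to 3.96 with 1 animal left out. It had no value where the filter or a left-out animal (vehicle 1, thioacetamide 2 or 3) removed it from the tested miRNAs. The miR-494 difference was -2.84 to -0.48 with 1 animal left out. The number that differed between slide sides (9) was 44 with the percentile over all probes, 19 with median scaling, 24 with quantile normalization, 15 with a floor 0.25 times as high, 17 at detection on at least 1 array, 2 on all arrays, 101 without a filter, 17 with Feature Extraction's gene signal, 18 with slide row as a block, and 0 to 15 with 1 animal left out. The slide difference of miR-494 turned negative with the percentile over all probes (-0.80), quantile normalization (-0.14), Feature Extraction's gene signal (-0.37), and without vehicle animal 1 (-0.16) or 2 (-0.66). With 1 animal left out it was -0.66 to 0.77, that of miR-1224 -2.56 to 0.040 and that of miR-188 -1.49 to 0.82, both highest values without thioacetamide animal 1. miR-188, detected only in columns 3 and 4, had no side test. Its side value was -2.36 with the percentile over all probes and -1.25 with quantile normalization. With Feature Extraction's gene signal the mean vehicle share of miR-188 was 0.0821% and the thioacetamide share of miR-494 0.0709%. Scaling moved the median treatment difference of all tested miRNAs by 0.52 (none), 0.67 (spike-in), 0.60 (without the 3), -0.43 (quantile), -0.42 (median) and -0.47 (normexp). The causes of these changes were not tested.

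Same-numbered animals did not deviate together (r of -0.70, -0.31 and -0.66 for numbers 1, 2 and 3). Each such pair lay on opposite sides of the slide, and for vehicle and thioacetamide animals on the same side r was 0.23 to 0.74. The check therefore cannot tell whether the numbers pair animals. A replicate block gave 10 calls between treatments, with miR-188 (3.27) but not miR-1224 (2.44) or miR-494 (-1.40), and nothing is read from these. Between sides it gave 16, miR-1224 (-1.15) among them, on few degrees of freedom. Where an animal was left out, a lone array was assumed to vary like the others. The limit for a spot well above background, 18.7 to 437, sets what could be detected.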
